A study of Mus musculus with 10 samples.

Results

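Lpcat3 and 7 related genes, Lpcat1, Lpcat2, Lpcat4, Mboat1, Mboat2, Mboat7 and Lclat1, encode enzymes that attach a fatty acid to a lysophospholipid. They were chosen by name, Lpcat3 as the deleted gene and the others as candidates for compensation. All 8 were among the 27179 genes of the count table, which names genes by NCBI Gene number, and 7 of them were among the 15226 genes that passed the filter on low counts. Mboat2 did not pass. Whole-liver RNA came from male C57BL/6 mice homozygous for a floxed Lpcat3 allele (Lpcat3f/f), on a nonalcoholic steatohepatitis (NASH) diet for 12 weeks. The 5 control mice carried the floxed allele alone, and the 5 LKO mice carried in addition Cre recombinase under the albumin promoter, which is active in hepatocytes. Cells in which that promoter was never active would keep the gene, and which cells of the LKO livers kept it was not measured. The labels give no age. Each library is 1 mouse.

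Membrane phospholipids are made with one set of acyl chains and then remodelled, a route known as the Lands cycle. Phospholipase A2 enzymes remove an acyl chain, acyl-CoA synthetases activate a replacement, and lysophospholipid acyltransferases attach it. The acyltransferases fall into the membrane-bound O-acyltransferase (MBOAT) family, which holds Lpcat3, Mboat1, Mboat2 and Mboat7, and the acylglycerolphosphate acyltransferase (AGPAT) family, which holds Lpcat1, Lpcat2, Lpcat4 and Lclat1. Lpcat3 is the main lysophosphatidylcholine acyltransferase of liver. It prefers polyunsaturated acyl-CoAs and is a target of the oxysterol receptor LXR.

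The genes share too little sequence for a 101-base read to match the coding sequence of more than one of them. In pairwise comparison of the coding sequences of the longest basic transcript (GENCODE M21, assembly GRCm38), the longest run shared by any of the 28 pairs of genes was 19 bases and the lowest value was 9 bases. The 3 longest runs, and the longest that Lpcat3 shared with any of the other 7, are shown 5′ to 3′ because they set how far reads of one gene could be counted for another.
Mboat1 and Mboat2: tgccagctctttgccttgt
Lpcat1 and Lclat1: atttttccagaaggaact
Lpcat2 and Lpcat4: aaaccaggagccttcatc
Lpcat3 and Lclat1: atgaaccactaca
Sharing with genes outside the family was confined to overlapping neighbours on the opposite strand. Of the 2181 windows of 101 bases in the Lpcat3 transcript, 234 (10.7%) were the reverse complement of Emg1 sequence. For Mboat7 2.81% of windows were shared with Tsen34 and for Lpcat2 6.9% with the gene model Gm45472, which was not analysed here. The other 5 transcripts shared no such window with another gene. Strand use in the counting was not given in the sources used here.

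Promoters are shown for the deleted gene and for Lpcat2 and Lpcat4. Within their groups, Lpcat2 and Lpcat4 were highest in control 4 and LKO 3. Lpcat1 and Mboat1 shared this pattern, which 19.4% of all tested genes had. The 250 bases before the RefSeq start (build GRCm38.p6, which is not the build of the counts) are shown with GC boxes (GGGCGG or CCGCCC) and CCAAT boxes (CCAAT or ATTGG) in capitals.
Lpcat3, chr6:124662854-124663103, plus strand: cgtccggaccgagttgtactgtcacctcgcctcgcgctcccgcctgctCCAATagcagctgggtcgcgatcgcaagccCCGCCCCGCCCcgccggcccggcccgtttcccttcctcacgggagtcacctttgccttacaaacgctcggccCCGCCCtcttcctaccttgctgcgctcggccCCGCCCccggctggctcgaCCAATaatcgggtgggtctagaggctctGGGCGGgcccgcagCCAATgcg
Lpcat2, chr8:92855083-92855332, plus strand: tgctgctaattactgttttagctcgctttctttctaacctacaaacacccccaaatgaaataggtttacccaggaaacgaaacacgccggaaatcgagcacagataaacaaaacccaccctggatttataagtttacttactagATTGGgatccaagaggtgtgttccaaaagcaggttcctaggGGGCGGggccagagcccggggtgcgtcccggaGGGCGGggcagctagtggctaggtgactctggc
Lpcat4, chr2:112239591-112239840, plus strand: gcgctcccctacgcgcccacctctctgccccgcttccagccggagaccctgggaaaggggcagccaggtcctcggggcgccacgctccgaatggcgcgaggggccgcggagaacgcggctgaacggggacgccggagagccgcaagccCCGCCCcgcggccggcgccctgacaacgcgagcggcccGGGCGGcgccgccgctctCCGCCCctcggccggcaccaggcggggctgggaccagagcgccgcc
Lpcat3 held 5 GC boxes and 3 CCAAT boxes, Lpcat2 held 2 and 1, and Lpcat4 held 3 and 0. A GC box was found in 32.7% and a CCAAT box in 33.8% of 32851 promoter windows of this length. The G and C content was 70% for Lpcat3, 51.2% for Lpcat2 and 79.6% for Lpcat4, beside a median of 52.4% over all windows. The hexamer bound by LXR and other nuclear receptors (AGGTCA or TGACCT), present in 14% of windows, was in none of the 8 promoters of the family. These letters are matches in this window and no more.

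Libraries held 26914124 to 46727182 counts. On the first principal component of all tested genes (56.8% of the variance) 4 controls had values of -52.7 to -30.1, whereas control 4 had 30.2, inside the LKO range of -8 to 82.3 (LKO 3 highest). Albumin, the defining hepatocyte transcript, stood at 36170 ± 5332 CPM in the controls and 28310 ± 4427 CPM in LKO (SD, n = 5). Levels are CPM, the standard counts relative to library size, with library sizes scaled by the trimmed mean of M-values (TMM). P-values for single genes are from edgeR's quasi-likelihood test, two-sided, with Benjamini-Hochberg adjustment over all 15226 genes. Of these genes, 0.0657% were called at an adjusted p under 0.05.

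Lpcat3 was the gene with the smallest p-value of the whole table. In control it had 123.9, 118.2, 111.1, 95.7 and 94.1 CPM in mice 1 to 5, and in LKO 31.1, 31.3, 38.5, 25.5 and 30.3 CPM. Every LKO library lay below every control library, with no overlap, which 2.23% of tested genes showed in that direction. The log2 fold change was -1.79 (SE 0.12, 95% interval -2.06 to -1.53, edgeR adjusted p = 0.000151). What remained in LKO was 28.9% ± 4.28 of the control mean (SD, n = 5), from 23.5% in LKO 4 to 35.5% in LKO 3. The remaining counts were 991 to 1440 per library, far above the floor of 3 counts. A count covers the whole gene, and the exons lost from the floxed allele were not given in the sources used here, so counts from exons that stay check nothing. In bulk RNA, fewer cells of a type and less RNA per cell cannot be told apart.

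Remaining Lpcat3 and the summed level of recruited macrophage markers were both highest in LKO 3, but their lowest LKO libraries differed, LKO 4 for Lpcat3 and LKO 1 for the markers. That sum over 8 markers (Lyz2, Cd68, Trem2, Gpnmb, Spp1, Itgax, Ccr2 and Cd9) was 787.5 CPM in LKO 3 and 201.2 CPM in the lowest LKO library. In control it ran from 83.2 to 450.7 CPM, with control 4 highest and the next control at 112.5 CPM, while Lpcat3 in control 4 (95.7 CPM) was the second lowest of the controls. LKO 3 also had the highest stellate cell, cholangiocyte, lymphocyte and neutrophil sums of the LKO libraries. The sum over 7 hepatocyte markers ran from 47960 CPM (control 4) to 76520 CPM in the controls and from 41830 to 60360 CPM in LKO. No marker of either list was at 0 in any library. The part of these cell types in the remaining Lpcat3 was not tested. Sample titles also hold a code of unstated meaning. Code A54 (control 1, LKO 1 and LKO 2) is found in each genotype, A55 in controls and A67 in LKO mice alone. The A54 livers had Lpcat3 at 123.9 CPM (control) against 31.1 and 31.3 CPM (LKO). Adding the code to the model gave a log2 fold change of -1.99 with an edgeR adjusted p = 0.0565. In that model the genotype contrast rests on these 3 libraries.

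Emg1, a ribosome biogenesis gene that overlaps Lpcat3 on the opposite strand, did not pass the test. It had 13.6 ± 1.89 CPM in the controls and 11.2 ± 0.97 CPM in LKO, with overlapping groups (log2 -0.28, SE 0.11, edgeR adjusted p = 0.187). Without control 4 its log2 fold change was -0.36 (edgeR adjusted p = 0.0292). Tsen34, the overlapping neighbour of Mboat7, had 10.5 ± 0.96 and 10.2 ± 0.77 CPM. Capns2, which overlaps the span of Lpcat2, had 0.331 ± 0.158 and 0.333 ± 0.109 CPM.

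**Figure D1:**
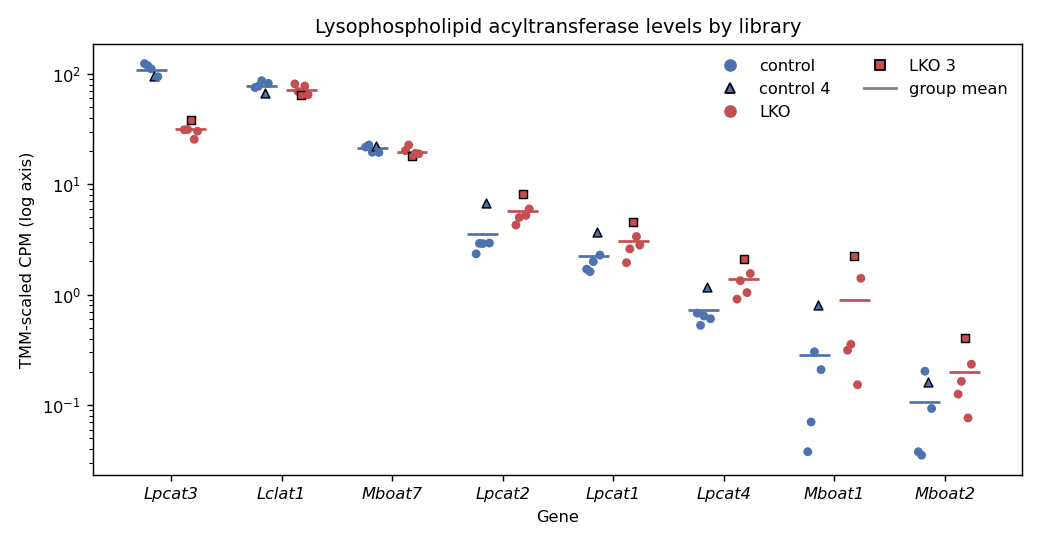
Level of each of the 8 genes in each library, as TMM-scaled CPM on a log axis, control in blue and LKO in red, with short lines for group means (n = 5). Triangles mark control 4 and squares LKO 3. Lpcat3 is the gene whose groups do not overlap, while control 4 and LKO 3 are the highest of their groups for Lpcat1, Lpcat2, Lpcat4 and Mboat1.

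Besides Lpcat3, the other abundant genes of the family were Lclat1 and Mboat7, and neither passed the test. Lclat1, which acylates lysocardiolipin and lysophosphatidylinositol, had 75.1, 77.4, 86.6, 66.6 and 82.0 CPM in the controls and 81.1, 69.2, 63.7, 77.5 and 64.7 CPM in LKO. The groups overlapped over most of their range (log2 fold change -0.12, 95% interval -0.34 to 0.09, edgeR adjusted p = 0.464). Mboat7 places arachidonic acid on lysophosphatidylinositol, and is known for its link to fatty liver. It had 21.7, 22.7, 19.5, 22.1 and 19.4 CPM in the controls and 20.2, 22.7, 17.97, 19.0 and 18.9 CPM in LKO (log2 -0.10, 95% interval -0.28 to 0.09, edgeR adjusted p = 0.521). Its groups overlapped as well. For both genes the upper limit of the interval is 0.09 with TMM scaling. Scaling to total counts moves the median of all 15226 log2 fold changes to 0.24, and there the sign turned for both (0.11 for Lclat1 and 0.14 for Mboat7), so no direction is given for them.

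Lpcat2 and Lpcat4 had higher means in LKO, but did not pass the test with all libraries. Lpcat2 makes phosphatidylcholine and platelet-activating factor in inflammatory cells. It had 2.34, 2.92, 2.90, 6.74 and 2.93 CPM in the controls and 4.27, 5.00, 8.21, 5.22 and 5.97 CPM in LKO. Control 4 was above 4 of the 5 LKO libraries, and the other 4 controls were below all 5. The log2 fold change was 0.69 (SE 0.29, 95% interval 0.05 to 1.32, edgeR adjusted p = 0.201). Lpcat4, which acylates lysophosphatidylcholine and lysophosphatidylethanolamine, had 0.680, 0.527, 0.641, 1.16 and 0.605 CPM in the controls and 0.911, 1.34, 2.09, 1.04 and 1.55 CPM in LKO. Here too control 4 alone reached into the LKO range (log2 0.94, SE 0.30, 95% interval 0.29 to 1.59, edgeR adjusted p = 0.134). Its counts were 15 to 78 per library, so counting error is larger for it than for Lpcat2, with 62 to 307.

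Lpcat1 and Mboat1 overlapped more widely. Lpcat1, known for saturated phosphatidylcholine of lung surfactant, had 1.70, 1.62, 1.99, 3.71 and 2.28 CPM in the controls and 1.95, 2.59, 4.52, 3.36 and 2.81 CPM in LKO (log2 0.43, SE 0.28, 95% interval -0.18 to 1.04, edgeR adjusted p = 0.369). Mboat1, which acylates lysophosphatidylethanolamine and lysophosphatidylserine, had 0.0378, 0.0703, 0.304, 0.806 and 0.209 CPM in the controls and 0.314, 0.355, 2.25, 0.153 and 1.41 CPM in LKO. LKO 3 and LKO 5 were high and the other 3 LKO libraries lay within the control range (log2 1.62, SE 0.83, 95% interval -0.20 to 3.45, edgeR adjusted p = 0.264). Control 1 had 1 count and control 2 had 2 counts of Mboat1, which is under the floor of 3 counts, and its fitted fold depends on the prior count. Mboat2, which prefers oleoyl-CoA, had 1 to 6 counts in control and 3 to 15 in LKO and was not tested.

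With all libraries, 0 of the 6 other genes tested were called in either direction by edgeR. Of all genes, 0.0263% were called as higher and 0.0394% as lower. At an unadjusted p under 0.05 there were 2 of the 6 tested (Lpcat2 and Lpcat4), both higher, where 12.8% of all genes were higher and 9.5% lower. DESeq2 called 1 as higher (Lpcat4, DESeq2 adjusted p = 0.0478) against 2.48% of its 25912 genes with a p-value. These include any gene that its own filter left without an adjusted p, so 2.48% is a lower bound. Limma voom with quality weights called 2 as higher (Lpcat2 and Lpcat4, limma adjusted p = 0.0147 and 0.0209) against 10% of all genes. Without control 4, edgeR called the same 2, with log2 fold changes of 1.05 (SE 0.19, adjusted p = 0.0107) and 1.17 (SE 0.28, adjusted p = 0.0225). In that fit 10.2% of all genes were called as higher, and 11.1% had every LKO library above every control. Lpcat1 and Mboat1 then had log2 fold changes of 0.68 and 2.45 (edgeR adjusted p = 0.0823 and 0.0784). Control 4 was singled out with these data in view, so these values are no independent evidence. Between the A54 livers, Lpcat2 had 2.34 CPM in control 1 and 4.27 and 5.00 CPM in LKO 1 and LKO 2, and Lpcat4 0.680 against 0.911 and 1.34 CPM. With the title code in the model their log2 fold changes were 0.98 (SE 0.56, edgeR adjusted p = 0.878) and 0.73 (SE 0.62, edgeR adjusted p = 0.885).

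**Figure D2:**
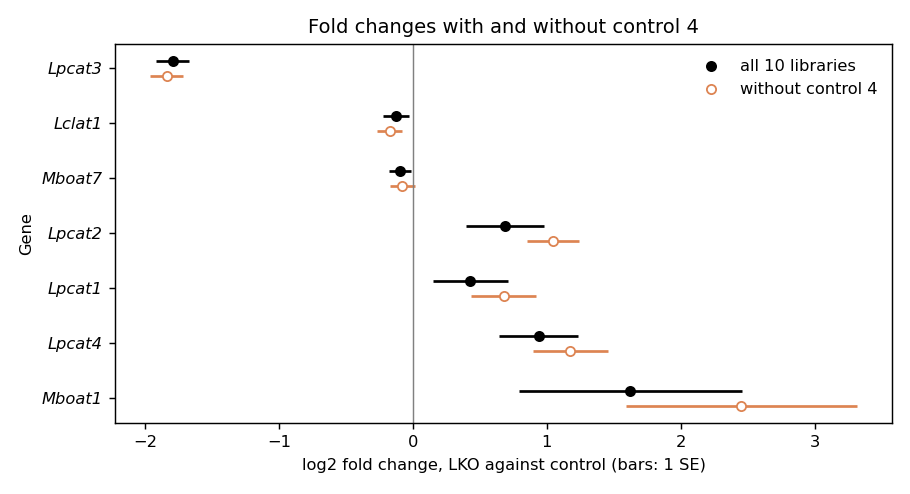
Log2 fold change of LKO against control for the 7 tested genes, with bars of 1 SE, from all 10 libraries (black) and from 9 libraries without control 4 (open orange). Lpcat3 stays near -1.8 in both, while Lpcat1, Lpcat2, Lpcat4 and Mboat1 lie farther from 0 without control 4.

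Of the 5 low-abundance genes, 4 had the same highest libraries. For Lpcat1, Lpcat2, Lpcat4 and Mboat1, control 4 was the highest control and LKO 3 the highest LKO library. Of all tested genes, 19.4% had this pattern. The fifth, Mboat2, was highest in control 3 (0.203 CPM) rather than control 4 (0.161 CPM), and in LKO 3 (0.401 CPM). Lclat1 had the opposite pattern, lowest in control 4 and in LKO 3, as did 19.2% of all genes. The summed recruited macrophage markers had the same highest libraries, with log2 differences from the control mean of 1.77 in control 4 and 2.57 in LKO 3. In the other controls that value ran from -0.67 to -0.23. The cholangiocyte sum (Krt19, Krt7, Epcam, Sox9 and Cldn7) was highest in LKO 3 and LKO 5, at 2.62 and 1.72, as was Mboat1, and the other LKO libraries ran from -0.37 to -0.15. Control 4 was its highest control, at 0.76. All 8 macrophage markers and the 4 tested cholangiocyte markers had higher means in LKO, and 0 of these were called. The same held for all 6 stellate cell, 6 endothelial and 3 tested neutrophil markers. Of 7 Kupffer cell markers 5 were higher, of 6 lymphocyte markers 5, and of 7 hepatocyte markers 0, again with 0 called. Stellate cell markers summed to 0.60 in control 4 and 0.86 in LKO 3 on the same scale, each the highest of its group. Kupffer cell markers were highest in LKO 4 (0.75) and stood at 0.07 in control 4 and 0.34 in LKO 3. The summed neutrophil and lymphocyte markers stood at 1.004 and 0.72 in control 4 and at 1.43 and 1.20 in LKO 3, each the highest of its group. Endothelial markers stood at -0.10 and -0.09. The part of these cell types in the acyltransferase values was not tested.

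**Figure D3:**
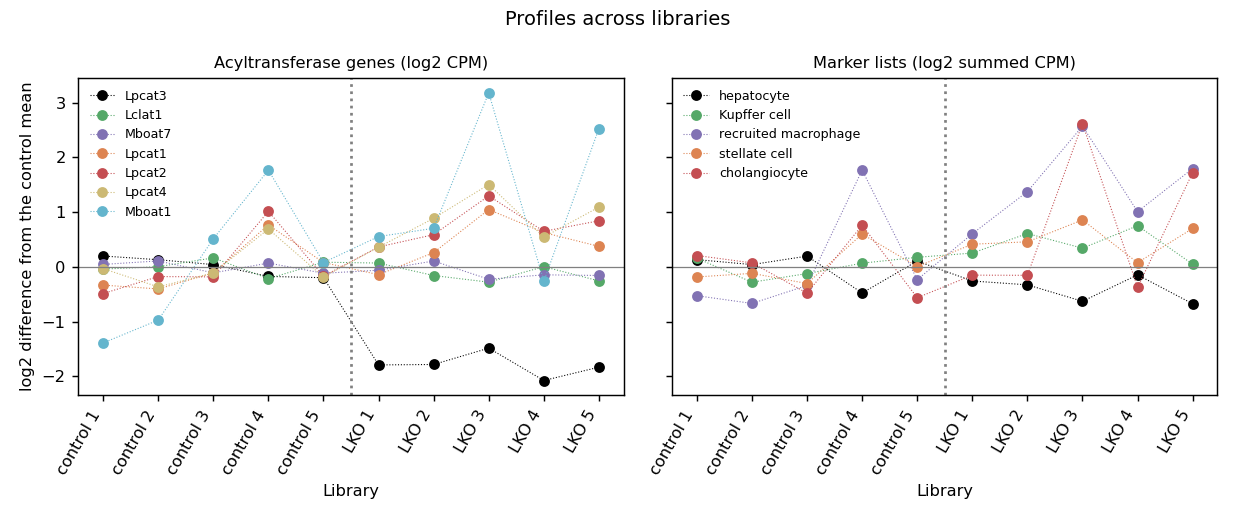
Log2 difference from the control mean in each of the 10 libraries, for the 7 tested genes (left, log2 CPM) and for 5 marker lists (right, log2 of summed CPM). Dotted lines only join the points of an item, since libraries have no order. Control 4 and LKO 3 are high for 4 acyltransferase genes and for recruited macrophage, stellate cell and cholangiocyte markers. Lpcat3 drops in all 5 LKO libraries.

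Divided by the length of the longest coding transcript, levels can be set beside each other between genes. In control, Lpcat3 led with 47.6 ± 5.84 CPM per kb, followed by Lclat1 with 17.4 ± 1.69 and Mboat7 with 7.32 ± 0.53 (SD, n = 5). None of these 3 ranges overlapped its neighbour. Lpcat2 had 1.27 ± 0.64, Lpcat1 0.615 ± 0.232, Lpcat4 0.318 ± 0.110, Mboat1 0.0983 ± 0.1068 and Mboat2 0.0156 ± 0.0110 CPM per kb. Each of these last 5 overlapped the next in its range over controls, but within each of the 5 control libraries they stood in this same order. In LKO, Lclat1 led with 15.9 ± 1.73 CPM per kb, and Lpcat3 had 13.7 ± 2.04, with ranges of 14.3 to 18.2 and 11.2 to 16.9 that overlap. Mboat7 followed with 6.86 ± 0.63.

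Summed over the 8 genes, the level per length was 74.6 ± 5.66 CPM per kb in control and 40.4 ± 2.07 in LKO. Without Lpcat3 the sums were 27 ± 0.78 and 26.6 ± 0.99 CPM per kb, with ranges of 25.97 to 28.2 and 25.1 to 27.7. Most of that sum is Lclat1 and Mboat7. It holds for TMM scaling, whose factors ran from 0.83 (control 1) to 1.29 (LKO 3), and was not computed under another scaling. Lpcat3 made up 63.6% ± 3.10 of the sum in control and 33.9% ± 3.54 in LKO. The share of Lclat1 was 23.3% ± 2.56 and 39.6% ± 4.95, and that of Mboat7 9.85% ± 0.87 and 17.0% ± 1.81. Lpcat1, Lpcat2, Lpcat4, Mboat1 and Mboat2 together had 3.18% ± 1.69 in control and 9.41% ± 2.84 in LKO, with control 4 at 6.14% and the LKO libraries between 6.23% and 13.6%. Shares move when Lpcat3 moves, so a larger share is not a higher level. Lengths from the union of all exons gave 62.0% and 32.3% for Lpcat3, 29.7% and 49.2% for Lclat1 and 4.74% and 8.02% for Mboat7.

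**Figure D4:**
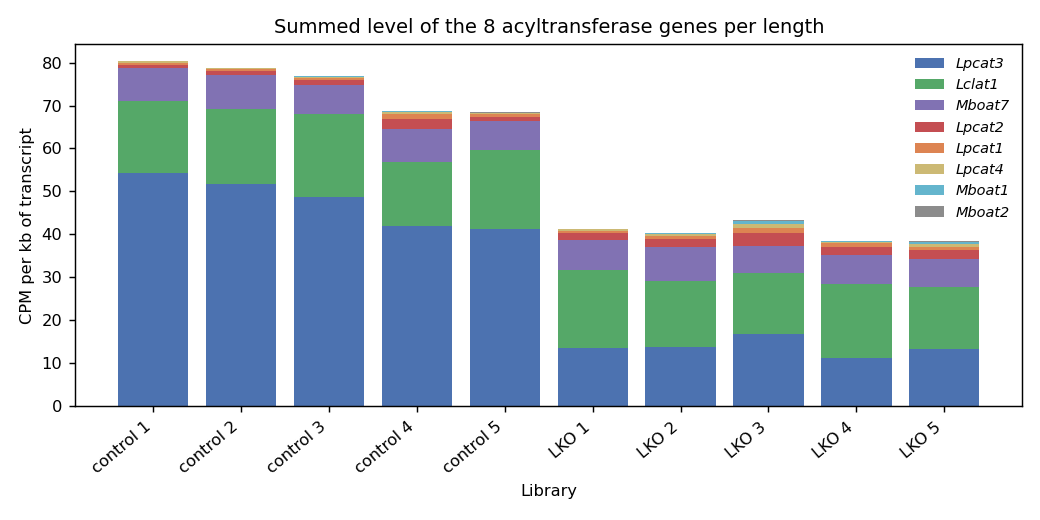
Stacked level of the 8 genes in each library, in CPM per kb of the longest coding transcript, on an axis from 0. The Lpcat3 segment (bottom) shrinks in all 5 LKO libraries. With TMM scaling the sum of the segments above it, mostly Lclat1 and Mboat7, stays between 25.1 and 28.2 in all 10.

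By root mean square difference of centred log2 CPM profiles over the 10 libraries, the genes most like Lpcat3 were Fam228b (0.41), Dsg1c (0.41), Cadm4 (0.42), Dsg1a (0.42) and Carmil1 (0.46). A flat gene would stand at 0.91 from Lpcat3. Their own log2 fold changes were -1.10, -1.50, -1.24, -1.46 and -0.93, all smaller in size than that of Lpcat3. Those of Cadm4 and Carmil1 did not pass (edgeR adjusted p = 0.0514 and 0.0663). Fam228b, Dsg1c and Dsg1a passed, where 0.0657% of all genes were called. Lower levels in LKO and calls largely follow from choosing these genes for their likeness to Lpcat3. Nearest to Lpcat2 were Ccdc88a (0.09), Flna (0.11) and Irf8 (0.11), with log2 fold changes of 0.64, 0.74 and 0.66. Nearest to Lpcat4 were Itpripl2 (0.10), Tmem229b (0.11) and Nt5c3b (0.14), and to Lpcat1 Prcp (0.12), Atad2 (0.13) and Procr (0.14). Nearest to Mboat1 were Elapor1 (0.36), Kif1a (0.43) and Lum (0.47), where a flat gene would stand at 1.38. Lclat1 lay closest to Golgb1, Golim4 and Pde8a, at 0.04 to 0.05, and Mboat7 to Vars2, Pik3r2 and Rbm42, each at 0.06. None of the genes nearest to these 6 passed the test, which largely follows from choosing them for their likeness to genes that did not pass.

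Of 65 other tested genes of phospholipid remodelling, 1 was called with all libraries. It was Pla1a, which encodes a phosphatidylserine-specific phospholipase, at 17.7, 12.6, 17.0, 14.1 and 13.8 CPM in the controls and 9.58, 9.01, 8.51, 9.80 and 8.02 CPM in LKO. All LKO libraries lay below all controls (log2 -0.74, SE 0.11, edgeR adjusted p = 0.0496). With 1 library left out the call was lost in 8 of 10 fits (edgeR adjusted p up to 0.166), and it held without control 4 (0.00683) and without LKO 1 (0.0396). It was also lost with scaling to total counts (log2 -0.51, edgeR adjusted p = 0.104), without the legacy option (0.0505), with robust dispersion (0.0516), with a replicate block (0.141) and with the title code in the model (0.832). Among the 15 phospholipases and lysophospholipases the median log2 fold change was -0.03, beside -0.00 over all genes. Pnpla6 and Pla2g12a, of lysophospholipid breakdown and secreted phospholipase A2, stood at -0.25 and -0.30, and Pla2g4a, the cytosolic phospholipase A2 that releases arachidonic acid, at 0.69. Their edgeR adjusted p-values were 0.138, 0.152 and 0.176.

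Other acyltransferases of glycerolipid synthesis had a median of 0.02, with 0 of 11 called. Gpat3, which acylates glycerol-3-phosphate, came nearest, at 10.4, 11.6, 11.5, 11.4 and 11.0 CPM in the controls and 12.7, 15.4, 21.7, 18.7 and 22.3 CPM in LKO. Its groups did not overlap, control 4 included (log2 0.70, SE 0.15, edgeR adjusted p = 0.0818). Such separation in that direction was seen in 1.72% of all tested genes. Agpat4, of lysophosphatidic acid acylation, was also separated, between 1.05 and 1.45 CPM in the controls and 1.72 and 2.06 CPM in LKO (log2 0.52, edgeR adjusted p = 0.134). Agpat2 stood at -0.36 and Tafazzin, the cardiolipin transacylase, at -0.13 on the log2 scale. Of the MBOAT superfamily beyond lysophospholipids, 0 of 5 tested were called. Soat1, the cholesterol acyltransferase of macrophages, had 8.46, 7.94, 8.10, 18.5 and 8.82 CPM in the controls and 12.8, 15.2, 29.0, 15.0 and 13.6 CPM in LKO. Its high libraries were again control 4 and LKO 3 (log2 0.72, edgeR adjusted p = 0.184). Porcn and Hhat, which acylate Wnt and Hedgehog proteins, stood at -0.63 and -0.57 and the diglyceride acyltransferase Dgat1 at 0.03. Hhat was separated, at 1.22 to 1.32 CPM in the controls and 0.407 to 1.19 CPM in LKO (edgeR adjusted p = 0.226). Separation in that direction was seen in 2.23% of all tested genes. Without control 4, Gpat3 and Soat1 were called as higher and Porcn as lower, where 10.2% and 4.75% of all genes were. Hhatl and Mboat4 were not tested.

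Genes that supply acyl-CoA substrates had a median log2 fold change of 0.66, with 9 of 10 above 0 and 0 called. At an unadjusted p under 0.05 there were 7 of 10, all higher, where 12.8% of all genes were. Of the 9 genes of LXR and its targets 4 were lower and 1 higher, and of the 15 phospholipases 4 were lower and 2 higher, where 9.5% of all genes were lower. Other glycerolipid acyltransferases had 2 higher and 0 lower, the MBOAT superfamily 1 and 0, and head group genes 1 and 1. Acsl3, an acyl-CoA synthetase, had 22.0, 33.7, 29.5, 25.98 and 33.6 CPM in the controls and 45.8, 42.9, 46.5, 55.6 and 53.1 CPM in LKO, with no overlap (log2 0.75, SE 0.13, edgeR adjusted p = 0.0521). With scaling to total counts it passed (log2 0.99, edgeR adjusted p = 0.0494), where the median of all genes is 0.24. Its control 4 value lay among the other controls, unlike that of Lpcat2. Elovl5 and Fads2, of polyunsaturated fatty acid elongation and desaturation, and the acyl-CoA synthetase Acsl5 stood at 0.98, 0.89 and 0.54 (edgeR adjusted p = 0.103, 0.107 and 0.119). Without control 4, 5 of the 10 were called, all higher (Acsl3, Fads2, Fads1, Elovl5 and Acsl4), where 10.2% of all genes were called as higher. Of 15 tested head group genes 0 were called, with a median of -0.08. Chka, the choline kinase, had 13.3 and 13.6 CPM in LKO 1 and LKO 2 but 56.5, 27.4 and 33.5 CPM in LKO 3, 4 and 5, beside 12.9 to 17.0 CPM in control (log2 1.06, SE 0.35, edgeR adjusted p = 0.14). Those 3 libraries are the ones coded A67. Etnk2, Ptdss1 and Pisd stood at -0.50, -0.23 and 0.16.

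LXR and its textbook targets, the transcription programme to which Lpcat3 belongs, had a median of -0.30, with 0 of 9 called. The canalicular sterol transporter Abcg8 stood at -0.80 (edgeR adjusted p = 0.213), with 64.4 CPM in control 4 against 201.5 to 294.4 CPM in the other controls and 72.9 to 158.8 CPM in LKO. Abca1, of cholesterol efflux, stood at -0.31 and the receptor partner Rxra at -0.36, while Abcg1, also of efflux, stood at 0.51. Without control 4, Abcg8, Abcg5 and Abca1 were called as lower and Abcg1 as higher. Of the 66 pathway genes tested without control 4, 16 were called, 9 higher and 7 lower, where 10.2% and 4.75% of all genes were. With all libraries DESeq2 called 9 of its 70 pathway genes and limma voom 17 of 65, where 4.41% and 16.2% of all genes were called. The 4.41% is a lower bound, since genes without a DESeq2 adjusted p are counted in. Without both control 4 and LKO 3, edgeR called 18 of 66, beside 15.6% of all genes.

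**Figure D5:**
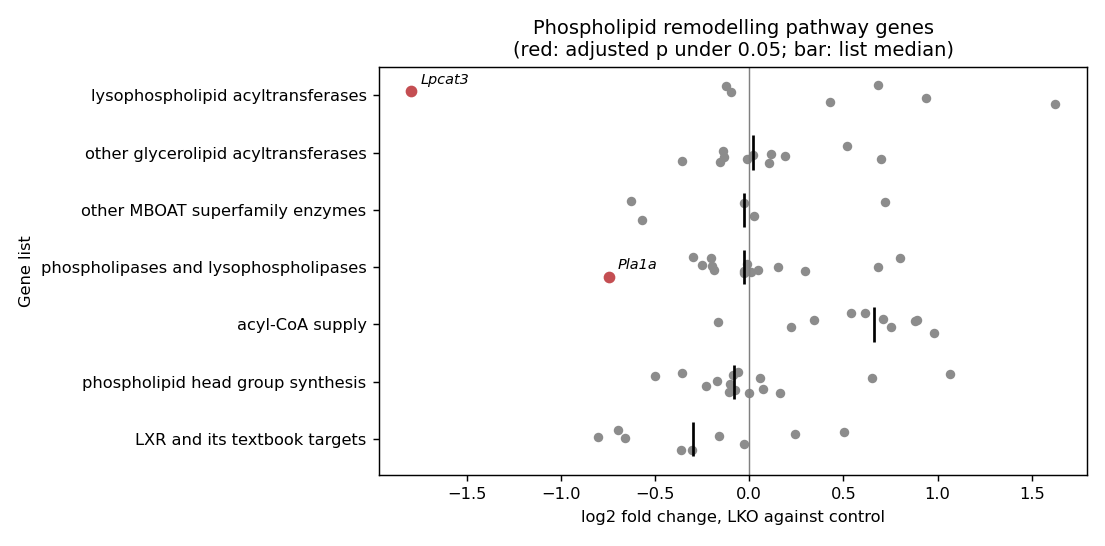
Log2 fold change of each tested gene of the 7 lists in LKO against control, from all 10 libraries, with a black bar at the median of each list except the first. Red points passed at an adjusted p under 0.05 and are Lpcat3 and Pla1a, and the acyl-CoA supply list has its median at 0.66.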

How the data were processed

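Per the labels' protocols, RNA was extracted from frozen liver, ribosomal RNA was removed and stranded libraries were read from 1 end for 101 cycles. The table deposited by the authors holds raw counts per gene. Tools listed in the submitters' processing notes are bcl2fastq 2.20 and DESeq2, with GRCm39 as the build. The aligner, counting tool and strand setting were not given in the sources used here.

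Symbols came from RefSeq (GRCm38.p6) and matched 25275 genes. The remaining genes, with 0.693% of counts, were tested as well. Lengths and transcripts came from GENCODE M21 (GRCm38). Counts were filtered with filterByExpr, scaled by TMM and fitted with genotype as the only term in edgeR 4.0.16 (R 4.3.3, legacy option, threshold 0.05). A standard error is the absolute log2 fold change over the square root of F. The common biological coefficient of variation was 0.242. One count equalled 0.0233 CPM (control 5) to 0.0378 CPM (control 1). The floor of 3 counts covers counting error only. No replicate pair agreed within sampling noise (lowest chi-square per degree of freedom 50.2 in control and 34.7 in LKO). P-values set the difference between genotypes against the spread between mice of the same genotype. Title code and genotype largely coincide, so their effects cannot be fully told apart. The test was checked on simulated counts, which held no outlying library and no difference between title codes.

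The genes, lists and tests were chosen with earlier results of these data known. Named genes are the family, genes overlapping it, up to 4 with the smallest p per pathway list (all called ones included), and the 5 (Lpcat3) or 3 nearest profiles with a mean of at least 1 CPM (log2 CPM with a prior count of 2). Fads1, Acsl4 and Abcg5 were named after their values were seen. Alternatives were other scalings and filters, DESeq2 1.42.0, limma 3.58.1 voom, edgeR without the legacy option or with robust dispersion, a block for replicate number, a term for title code, and libraries left out. Lengths from the exon union were added after seeing the data. Figures were drawn with matplotlib 3.10.9.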

Additional observations from a re-analysis of the deposited data

Results flagged for a closer look

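Of 70 groups of 5 values checked (35 of the named genes in each genotype), 7 had a library far from the other 4. For a single group, chance alone flags about 1 in 20. The genes share libraries, so the flags are not independent, and all but that of Emg1 fell on control 4 or LKO 3. For Lpcat2 control 4 had 6.74 CPM and the other controls 2.34 to 2.93. Lpcat4 in control 4 was at 1.16 CPM, beside 0.527 to 0.680 in the others. The Emg1 value of LKO 5 was 9.55 CPM, under the 11.3 to 11.9 of the other LKO libraries. Soat1 was set apart in both genotypes, by control 4 (18.5 CPM, others 7.94 to 8.82) and by LKO 3 (29.0 CPM, others 12.8 to 15.2). Chka had 17.0 CPM in control 4 and 12.9 to 13.2 CPM in the other controls. Rxra was low in control 4, at 356.9 CPM against 424.3 to 430.3.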

How the results depend on the processing

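Lpcat3 kept its direction under all 22 other settings and its call under all but the title code covariate, where the log2 fold change was -1.99 (edgeR adjusted p = 0.0565). With 1 library left out it ran from -1.88 (LKO 3) to -1.73 (LKO 4). Of the other family genes tested in each fit, 1 was called by DESeq2, 2 by limma voom and 2 without control 4 and LKO 3. With 1 library left out, 0 to 2 were called (2 without control 4). Scaling to total counts turned the sign of Lclat1 (0.11) and Mboat7 (0.14). Total counts scaling left 1 other pathway gene called, Acsl3 in place of Pla1a. That number, 1 with all libraries, was 2 without a filter and 2 with at least 1 CPM in 5 libraries. It was 9 by DESeq2, 17 by limma voom and 18 without control 4 and LKO 3. It was 0 without the legacy option, with robust dispersion and with the title code as a covariate, and 0 to 16 with 1 library left out (3 without LKO 1 and 16 without control 4). The cause was not tested. Calls over all genes numbered 10, beside 2296 without control 4. The replicate numbers of the titles share no stated origin. Deviations of same-numbered mice had correlations from -0.40 to 0.42, and 1 of 5 controls was best with its own number. That was control 1 with LKO 1 (0.42), the only same-numbered pair that shares a title code (A54). With the replicate number as a block, Lpcat3 had a log2 fold change of -1.80 (edgeR adjusted p = 0.00438), 0 other pathway genes and 2 genes in all were called. Lengths from the exon union moved the shares of Lclat1 and Mboat7 by more than 1 SD. At 1 to 25 counts in control, Mboat1 and Mboat2 are limited by depth.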
